A study of Sus scrofa with 32 samples.

Results

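Collagens are triple helices of 3 polypeptide chains that give connective tissue its strength. Types I and III form the striated fibrils of skin, tendon and the sheaths around muscle fibres, and COL1A2 and COL3A1 encode chains of these types. Types V and XI are minor fibrillar collagens that nucleate fibrils and limit their diameter, and COL5A1, COL5A2 and COL11A1 encode their chains, which can also combine with each other. COL6A3 encodes a chain of type VI collagen, which forms beaded microfilaments around cells and basement membranes. In muscle these chains are made mostly by fibroblasts of the endomysium, perimysium and epimysium, and the amount and cross-linking of collagen are known determinants of meat toughness.

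The 6 genes were chosen by name among 25322 gene IDs, and each was represented by 1 ID: COL1A2 (ENSSSCG00000015326), COL3A1 (ENSSSCG00000016034), COL5A1 (ENSSSCG00000005751), COL5A2 (ENSSSCG00000016035), COL6A3 (ENSSSCG00000027331) and COL11A1 (ENSSSCG00000006857). COL3A1 and COL5A2 are neighbouring coding genes in the pig genome (RefSeq, Sscrofa11.1). The second chain of type I collagen, COL1A1, was paired with no ID and was not analysed here. RNA sequencing covered 2 muscles, longissimus dorsi (LD) from the loin and semimembranosus (S) from the ham, in gilts of 2 breeds, 8 Pulawska (PUL) pigs and 8 of Polish Landrace (PL). The labels give an age of 180 days for every pig, while the study's methods give slaughter by weight. The pigs had no close kin among them and were fattened at 1 station. PUL is a native Polish breed kept for conservation and PL is a white breed used as a maternal line. Each pig gave 1 library of each muscle, so there were 4 groups of 8 libraries. The labels also put every PUL pig in a high and every PL pig in a low shear force class, while the study's text calls PL pork the less tender. The class was not used, and every direction below rests on the breed named in the labels, which was not checked here.

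Counts per library lay between 8821273 and 24761853, and the 6 genes together took between 0.00862% and 0.479% of a library (median 0.102%). Values are given as CPM, counts corrected for depth by TMM factors over the 32 libraries. The count behind a value was between 10 and 137 for COL11A1, between 17 and 183 for COL5A1, and between 608 and 47668 for COL1A2 and COL3A1, so counting error weighs most on COL11A1 and COL5A1. CPM is not corrected for gene length, so levels were compared between groups and not between genes. The skeletal muscle markers with an ID, ACTA1 and NEB, summed to between 31962 and 158973 CPM in every library. Libraries of PUL pigs 1, 2, 3, 4 and 5 stood apart by RNA of liver type. The mean level of 21 hepatocyte genes, on a centred log2 scale, lay between -0.00042 and 3.74 in their libraries and between -0.76 and -0.40 in all others. These pigs were picked by hepatocyte genes and are no group of the study, and the breed values of the 6 collagen genes are also given without them, while those of other genes are for all pigs. In whole muscle, fewer cells of a type and less RNA per cell cannot be told apart.

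The major fibrillar chains varied widely among pigs of a breed. COL1A2 in LD ranged from 69.1 to 669 CPM in PUL (median 98.7) and from 169.6 to 1375 CPM in PL (median 303.0). In S it ranged from 32.8 to 714 CPM in PUL (median 242.8) and from 264.0 to 1341 CPM in PL (median 796.3). PL pigs 10 and 14 exceeded all PUL pigs in LD and 5 PL pigs did in S, while the remaining PL pigs overlapped with PUL. COL3A1 in LD ranged from 104 to 1044 CPM in PUL (median 206) and from 226 to 2630.0 CPM in PL (median 592). Its range in S was 32.8 to 1103 CPM in PUL (median 244) and 520.0 to 2691 CPM in PL (median 719.9). In S, PUL pigs 1 to 5 all lay below every PL pig for COL3A1, and PUL pigs 13, 16 and 17 lay among the PL pigs. The lowest values of both genes in S were those of PUL pig 2, with 608 counts of each, and the highest in S were those of PL pig 12.

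The type V chains were compared next. COL5A1 in LD lay between 1.89 and 9.09 CPM in PUL (median 3.65) and between 2.92 and 8.93 CPM in PL (median 4.41). In S it lay between 0.916 and 11.05 CPM in PUL (median 3.50) and between 2.78 and 20.7 CPM in PL (median 6.56). No PL pig exceeded every PUL pig in LD, and in S only PL pig 8 did. COL5A2 in LD lay between 7.94 and 28.4 CPM in PUL (median 12.7) and between 11.3 and 62.2 CPM in PL (median 24.9). In S the range was 3.93 to 29.2 CPM in PUL (median 19.0) and 21.1 to 53.5 CPM in PL (median 33.4). For COL5A2, 4 PL pigs exceeded all PUL pigs in each muscle, and PUL pigs 1 to 5 lay below every PL pig in S.

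The microfibrillar chain and the type XI chain differed in how the groups overlapped. COL6A3 in LD ranged from 11.8 to 36.8 CPM in PUL (median 19.9) and from 11.3 to 36.5 CPM in PL (median 25.02). In S it ranged from 5.82 to 44.7 CPM in PUL (median 17.01) and from 12.95 to 63.2 CPM in PL (median 27.8). The ranges in LD covered each other almost fully. COL11A1 in LD ranged from 0.703 to 5.05 CPM in PUL (median 2.66) and from 1.33 to 7.9996 CPM in PL (median 3.13). Its range in S was 0.646 to 2.91 CPM in PUL (median 1.24) and 2.46 to 15.5 CPM in PL (median 2.95). In S, 7 of 8 PUL pigs lay below every PL pig for COL11A1, with PUL pig 1 as the exception, and 6 of 8 PL pigs exceeded all PUL pigs.

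Ordered by the median, PUL LD was lowest and PL S highest for COL1A2, COL3A1 and COL5A2, with PUL S and PL LD between them. For COL5A1 and COL6A3, the order from the lowest was PUL S, PUL LD, PL LD and PL S. COL11A1 differed in having PL LD above PL S, with PUL S lowest. Neighbours in each order overlapped in range for all 6 genes. The coefficient of variation among the 8 pigs of a group lay between 33.1% (COL5A2 in PL S) and 95.7% (COL1A2 in PUL LD).

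**Figure D1:**
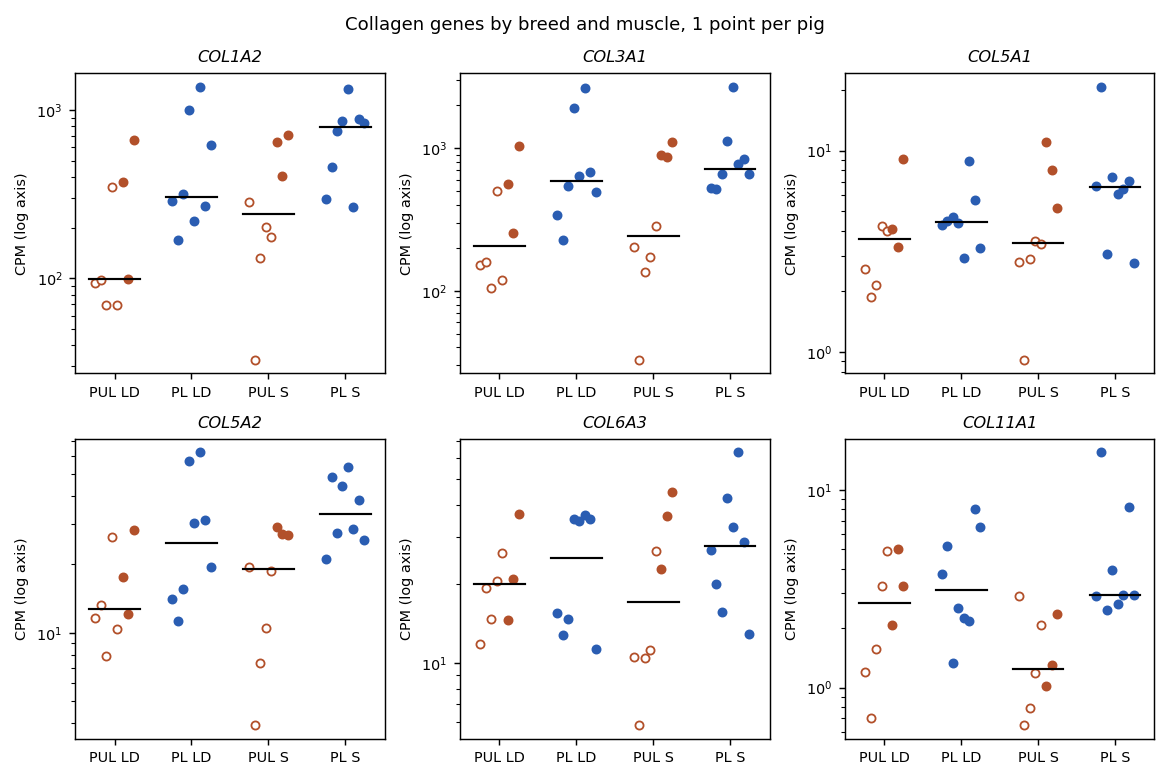
Level of each of the 6 collagen genes in CPM (log axis) by breed and muscle, with 1 point per pig (8 per group), brown for PUL and blue for PL. Hollow points are PUL pigs 1 to 5 and black lines are group medians. In S the hollow points lie below the filled brown points for COL1A2, COL3A1, COL5A1 and COL5A2, and for COL11A1 they do not.

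The breeds were compared in each muscle, with the fold change given as PL over PUL, and a gene was counted as differentially expressed at an adjusted p of 0.05 or less with a fold change of at least 1.3. In LD all 6 genes had fitted values above 0, that is, higher in PL, and none passed the test. The background over the 10792 genes tested in LD was 0 genes called, or 0%, with edgeR's quasi-likelihood test, against 0.176% with DESeq2 and 0.12% with the exact test. An unadjusted p under 0.05 in the direction of PL was reached by 3 of the 6 collagen genes and by 3.64% of all genes tested. The log2 fold change was 1.28 ± 0.56 (SE) for COL1A2, 1.43 ± 0.57 for COL3A1 and 0.96 ± 0.37 for COL5A2, with adjusted p of 0.654, 0.601 and 0.575 (edgeR). It was 0.35 ± 0.31 for COL5A1, 0.29 ± 0.30 for COL6A3 and 0.55 ± 0.42 for COL11A1. The median over the 6 genes was 0.76, beside 0.01 over all genes tested, of which 50.8% had a value above 0. The 3 genes with an unadjusted p under 0.05 lost it when PL pig 14, the highest pig for each of them, was left out, and also without PL pig 10. Without PL pig 14, their log2 fold changes were 0.89, 0.99 and 0.71. COL1A2 also lost it without PUL pig 1, 2, 3 or 5, with an unadjusted p between 0.0594 and 0.0627 (edgeR).

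In S all 6 genes again had fitted values above 0 and none passed the test, with 0 of 10687 genes called, or 0%. The mean of COL1A2 was 324.7 ± 246.8 CPM (SD, n = 8) for PUL and 713 ± 359 CPM (SD, n = 8) for PL, with a log2 fold change of 1.15 ± 0.48 (SE). The values for COL3A1 were 462 ± 421 CPM in PUL and 976 ± 719.6 CPM in PL, with a log2 fold change of 1.11 ± 0.57. For COL5A2 the log2 fold change was 1.03 ± 0.34 with an unadjusted p of 0.00805, and an adjusted p of 0.283 from edgeR. COL5A1 and COL6A3 had smaller values of 0.70 ± 0.45 and 0.54 ± 0.40. Single PL pigs weighed on these values, which were 0.28 for COL5A1 without pig 8, 0.30 for COL6A3 without pig 14 and 0.68 for COL3A1 without pig 12. An unadjusted p under 0.05 in the direction of PL was reached by COL1A2, COL5A2 and COL11A1. That is 3 of 6, beside 5.38% of all genes tested. In either direction, 1252 of 10687 genes had an unadjusted p under 0.05. COL1A2 did not reach it without PL pig 12 (edgeR, unadjusted p = 0.0645). The median over the 6 genes was 1.07, beside 0.02 over all genes, of which 52.6% had a value above 0.

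COL11A1 had the largest log2 fold change of the 6 genes in S, 1.76 ± 0.45 (SE), with an unadjusted p of 0.000918 and an adjusted p of 0.204 (edgeR's quasi-likelihood test). Its mean was 1.53 ± 0.813 CPM (SD, n = 8) for PUL and 5.19 ± 4.57 CPM (SD, n = 8) for PL. DESeq2 called it, with 0.964% of all genes, at an adjusted p of 0.0188, and edgeR's exact test called it, with 0.524% of all genes, at 0.0336. The study picked COL11A1 from these same libraries as overexpressed in PL, so these values are not independent evidence of its direction. PL pig 8 was its highest library, and its log2 fold change was 1.28 when that pig was left out. Leaving out any single pig kept the adjusted p between 0.113 and 0.341.

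Among the PUL pigs, the low values of the major fibrillar chains in S lay in pigs 1 to 5. COL1A2 in S was between 32.8 and 285 CPM in these 5 pigs and between 407 and 714 CPM in the other 3 PUL pigs. COL3A1 was between 32.8 and 285 CPM in the former and between 872 and 1103 CPM in the latter. All 5 pigs lay below the other 3 for COL1A2, COL3A1, COL5A1 and COL5A2, that is, 4 of 6 genes, beside 3.42% of all genes tested in S. For COL11A1 the 2 sets of PUL pigs overlapped in S. In LD no collagen gene separated them, beside 1.49% of all genes tested, although 4 of the 5 pigs lay below the other 3 for COL1A2 and COL3A1.

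Without PUL pigs 1 to 5, the log2 fold change in S was 0.29 ± 0.44 (SE) for COL1A2, 0.06 ± 0.46 for COL3A1 and 0.40 ± 0.29 for COL5A2. COL5A1 had -0.08 ± 0.51 and COL6A3 had -0.17 ± 0.41, both with the sign turned. The value of COL11A1 was 1.75 ± 0.66, as large as with all pigs, with an unadjusted p of 0.0201 and an adjusted p of 0.294 (edgeR, 3 PUL pigs against 8 PL pigs). In LD without these pigs, COL1A2 had 0.50 ± 0.68, COL3A1 had 0.61 ± 0.71 and COL5A2 had 0.66 ± 0.53. The LD values of COL5A1, COL6A3 and COL11A1 were then -0.17 ± 0.37, 0.04 ± 0.44 and 0.19 ± 0.51. The median over the 6 genes was then 0.17 in S and 0.35 in LD. With the hepatocyte gene level as a covariate, COL11A1 in S had 2.03 ± 0.56 and an adjusted p of 0.0931 (edgeR), and the other 5 genes lay between 0.38 and 0.88. In LD the covariate left none of the 6 genes with an unadjusted p under 0.05, and COL5A1 had 0.00 ± 0.37. The part of the liver-type RNA in the collagen values was not tested.

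**Figure D2:**
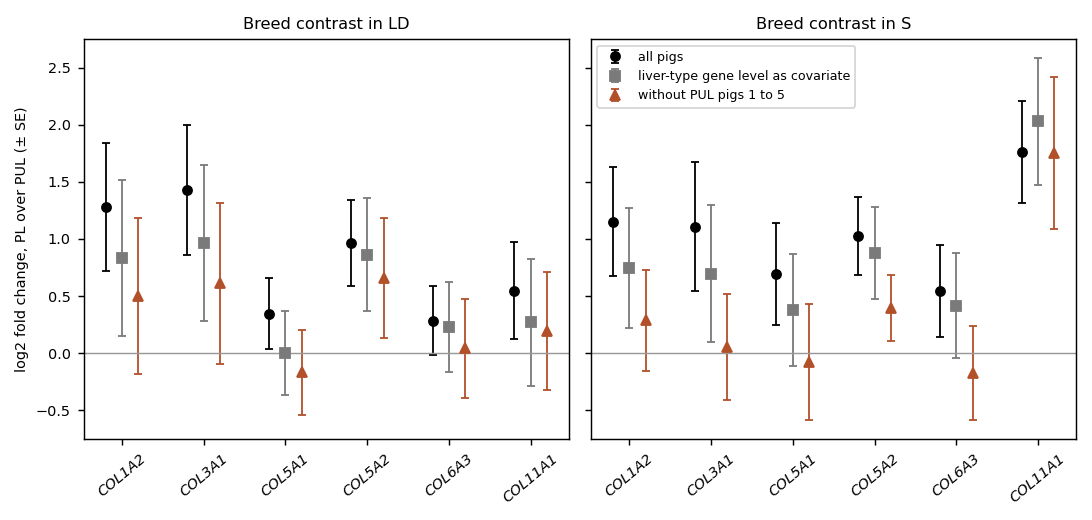
Log2 fold change of PL over PUL with its standard error for each collagen gene in LD (left) and S (right), from edgeR. Black circles are all 16 pigs, grey squares the fit with the liver-type gene level as a covariate, and brown triangles the fit without PUL pigs 1 to 5. In S the triangles lie between -0.17 and 0.40 except that of COL11A1, at 1.75.

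Markers of other cells were summed in each library beside these results, and every list gene with an ID had counts in at least 1 library. Of 10 fibroblast markers 6 had an ID, and their sum had a median of 184 CPM in PUL LD (82.4 to 655) and 351 CPM in PL LD (156 to 1391). In S the median was 378 CPM in PUL (50.6 to 593) and 538 CPM in PL (159 to 1277). DCN and LUM weighed most in the sum, with medians of 149 and 28.6 CPM in PUL LD, beside 0.145 to 3.17 CPM for the others. FBLN1 alone had a lower median in PL LD (2.48 CPM) than in PUL LD (2.97 CPM). All 5 fibroblast markers tested had fitted values above 0 in each muscle, with medians of 0.94 in LD and 0.88 in S, so they lay to the same side as the collagens. The sum of the 21 hepatocyte genes with an ID, of 24, went the other way. Its median was 67.4 CPM in PUL LD (24.2 to 161) and 25.2 CPM in PL LD (20.05 to 34.1). In S it was 71.5 CPM in PUL (30.3 to 760.2) and 26.6 CPM in PL (17.9 to 65.1). Single genes did not all follow the sum. APOA1 had a higher median in PL than in PUL in both muscles, and ITIH4 had one in S. Of the 4 hepatocyte genes tested by breed in each muscle, 1 had a fitted value above 0 in LD and 0 did in S. Over all 32 libraries the medians of 11 of the 21 genes, APOB and TTR among them, were under 0.1 CPM. By group, TTR had medians of 2.13 CPM in PUL LD and 1.85 CPM in PUL S and of 0 CPM in both PL groups.

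Cartilage, where type XI collagen is abundant, was looked for through ACAN, MATN1, MATN3, SOX9, COL9A1 and HAPLN1. All but SOX9 had a median under 0.1 CPM over the 32 libraries, and the 6 genes summed to between 0.14 and 2.10 CPM in a library, with medians of 0.638 CPM in PUL S and 1.09 CPM in PL S. Tendon markers, 6 of 7 with an ID and TNMD, MKX and COMP with medians under 0.1 CPM over the 32 libraries, had a median sum of 9.12 CPM in PUL LD (6.10 to 31.5), 16.3 CPM in PL LD (11.2 to 82.7), 16.0 CPM in PUL S (2.05 to 32.6) and 24.8 CPM in PL S (16.1 to 58.5). Both tendon markers tested had fitted values above 0 in each muscle. Of the remaining lists, adipocyte markers (3 of 6) had median sums between 13.9 and 22.3 CPM over the 4 groups, endothelial markers (3 of 5) between 92.5 and 101 CPM, immune markers (3 of 5) between 9.08 and 12.4 CPM, and smooth muscle markers (5 of 5, with DES, which muscle fibres also express) between 4426 and 6922 CPM. The part of these cell types in the collagen values was not tested.

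Whether the muscles differed was asked within each pig, with the fold change given as S over LD and the pig as a block. None of the 6 genes passed the test over 16 pigs, beside 13 of 11563 genes, or 0.112%, and 5 of the 6 had values above 0, beside 46.4% of all genes. COL1A2 had a log2 fold change of 0.63 ± 0.32 (SE), with an unadjusted p of 0.0607, an adjusted p of 0.866 (edgeR) and higher values in S in 12 of 16 pigs. Without PL pig 14, in which COL1A2 was 1375 CPM in LD and 264.0 CPM in S, it was 0.80 with an unadjusted p of 0.0081. In that fit 1567 of 11678 genes had an unadjusted p under 0.05 and 85 were called, beside 677 and 13 with all pigs. COL1A2 was not called, and its adjusted p (edgeR) was 0.194 or higher whichever pig was left out. With all pigs, the other values were 0.23 ± 0.29 for COL3A1, 0.30 ± 0.22 for COL5A1, 0.25 ± 0.23 for COL5A2, 0.07 ± 0.16 for COL6A3 and -0.21 ± 0.25 for COL11A1. The difference within a pig had no common direction, and for COL1A2 it ranged from -2.38 in PL pig 14 to 2.61 in PL pig 12. For COL6A3 it ranged from -1.65 in PUL pig 2 to 0.78 in PL pig 14, the narrowest of the 6 genes. Without PUL pigs 1 to 5, COL6A3 had 0.37 ± 0.12 and the lowest unadjusted p of the 6 genes, 0.00925, with an adjusted p of 0.999 (edgeR, 11 pigs).

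For COL11A1 the 2 breeds were also taken apart. In PUL it was lower in S in 7 of 8 pigs, with a log2 fold change of -0.75 ± 0.33 (SE), an unadjusted p of 0.0447 and an adjusted p of 0.584 (edgeR), beside 7 of 10771 genes called, or 0.065%. In PL it was higher in S in 6 of 8 pigs, with 0.29 ± 0.29, or 0.08 without PL pig 8, and all 6 collagen genes there lay between 0.29 and 0.68 beside 0 of 10680 genes called, or 0%, with 50.5% of all genes above 0. The test of the difference itself, the breed-by-muscle interaction, gave COL11A1 a log2 value of 1.05 ± 0.45, an unadjusted p of 0.0326 and an adjusted p of 0.9996 (edgeR), so it did not pass, and 0 of 11563 genes did, or 0%. The other 5 genes had interaction values between 0.08 and 0.46. Without PUL pigs 1 to 5, COL11A1 had 1.46 ± 0.55 and the other 5 genes lay between -0.51 and -0.16.

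**Figure D3:**
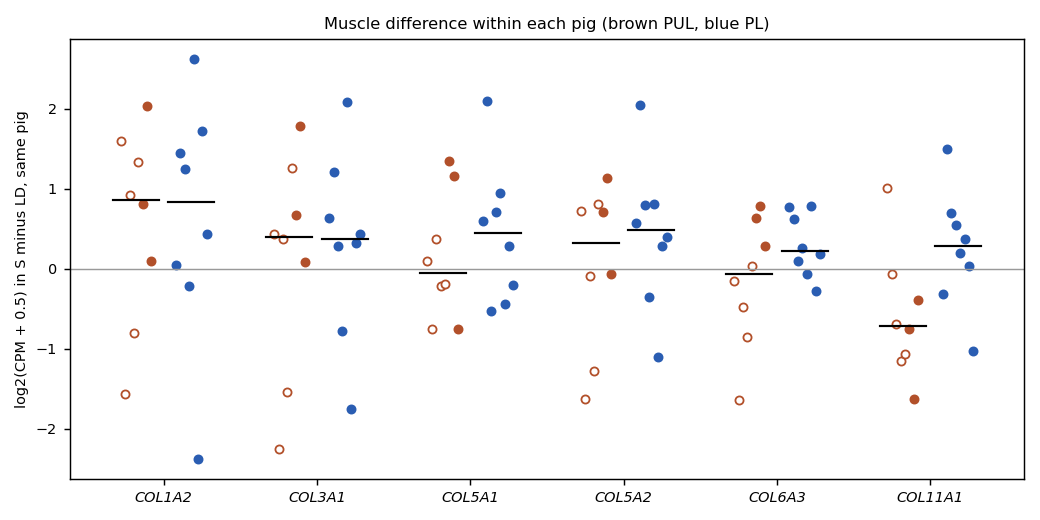
Difference between the S and LD muscle of each pig, in log2(CPM + 0.5), for the 6 collagen genes, with PUL in brown (hollow for pigs 1 to 5) and PL in blue. Black lines are medians of 8 pigs. For COL11A1, 7 of 8 PUL pigs lie below 0. In PL, 6 of 8 pigs lie above 0 for COL11A1 and also for COL1A2, COL3A1, COL5A2 and COL6A3. Every gene has pigs on both sides of 0 in each breed.

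Ratios among chains were taken of CPM + 0.5, and all 15 pairs of the 6 genes were compared by breed in LD, by breed in S and between the muscles, 45 tests in all. None passed after Benjamini-Hochberg adjustment, the lowest adjusted p being 0.288, and 7 had an unadjusted p under 0.05. The log2 ratio of COL3A1 to COL1A2 in LD was 0.73 ± 0.26 (SD, n = 8) in PUL and 0.73 ± 0.61 (SD, n = 8) in PL, a difference of 0.00 (exact permutation test, two-sided, p = 0.993). In S it was 0.27 ± 0.53 in PUL and 0.42 ± 0.66 in PL. Over all 16 pigs the ratio was 0.73 ± 0.45 (SD) in LD and 0.35 ± 0.58 in S, a difference of -0.38 (exact sign-flip permutation test, two-sided, p = 0.0161, adjusted p = 0.288).

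Of these 7 ratios, 5 belonged to the breeds in LD. When 1 pig was left out the number of LD ratios with an unadjusted p under 0.05 lay between 1 and 6, and it was 1 without PUL pig 2, 3, 5 or 16 or PL pig 10, 14 or 18, and 2 without PUL pig 1. The log2 ratio of COL6A3 to COL3A1 in LD was -3.72 ± 1.07 (SD, n = 8) in PUL and -4.92 ± 0.79 (SD, n = 8) in PL, a difference of -1.21 (exact permutation test, p = 0.0241). In S the same ratio was -3.99 ± 0.88 and -4.93 ± 0.84, a difference of -0.94 (exact permutation test, p = 0.0451). The ratios of COL5A1 to COL1A2 and to COL3A1 in LD both differed by -1.03 (exact permutation test, p = 0.0416 and p = 0.0370), and those of COL5A2 to COL3A1 and of COL6A3 to COL5A2 by -0.60 each (exact permutation test, p = 0.0482 and p = 0.0356). In each of these pairs the chain with the smaller log2 fold change stood over the one with the larger, and the pairs share chains. The 2 chains of type V, as COL5A2 to COL5A1, differed by 0.43 in LD (exact permutation test, p = 0.205) and 0.52 in S (exact permutation test, p = 0.103). COL11A1 to COL5A1, whose chains can share a helix, differed by 0.12 in LD and 0.66 in S. Without PUL pigs 1 to 5, 0 ratios by breed in LD and 2 in S had an unadjusted p under 0.05.

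**Figure D4:**
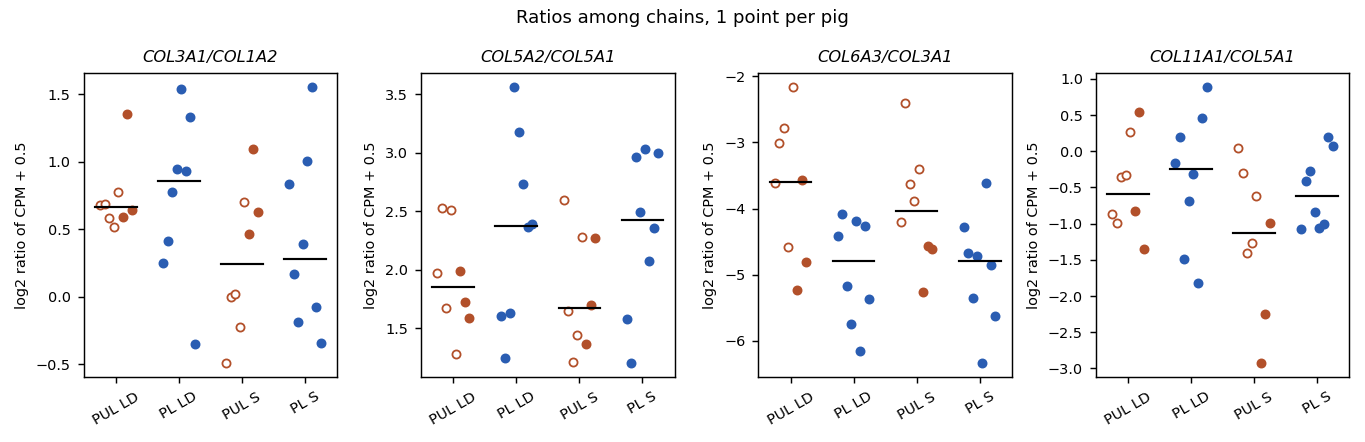
Log2 ratio of CPM + 0.5 for 4 of the 15 pairs of collagen genes, with 1 point per pig in each of the 4 groups (brown PUL, hollow for pigs 1 to 5, blue PL) and black lines at the medians. COL3A1/COL1A2 in LD has medians of 0.66 in PUL and 0.86 in PL, with a mean, not drawn, of 0.73 in both. The medians of COL6A3/COL3A1 are lower in PL, at -4.80 in LD and -4.79 in S, beside -3.59 and -4.04 in PUL.

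The pigs were then compared gene by gene in 16 relations, each of the 6 genes between the muscles and COL1A2 against the other 5 genes in each muscle, on log2 values. Of these, 10 had an adjusted p of 0.05 or less for Pearson's r (permutation test), and there were 6 on CPM in place of log2 values and 3 without PUL pigs 1 to 5. Of the 5 genes set against COL1A2, COL3A1 was the closest, and pairs without COL1A2 were not compared across pigs. In LD over 16 pigs it had r = 0.944 and rho = 0.871 (permutation test, adjusted p = 8e-05 for r and 0.00112 for rho). Over both breeds r was 0.914 without the 2 pigs farthest from the median. Within the breeds it was 0.979 in PUL and 0.860 in PL, and without the 2 farthest pigs of PL it was 0.354 there. In S the 2 genes had r = 0.924 and rho = 0.812, with 0.959 in PUL and 0.663 in PL, and 0.639 without PUL pigs 1 to 5. Within PL in S it was 0.867 without the 2 farthest pigs. COL5A2 followed COL1A2 with r = 0.855 in LD and 0.898 in S (rho 0.826 and 0.803, permutation test, adjusted p = 8e-05 for both r). Within PL r was 0.754 in LD and 0.548 in S, and 0.113 and 0.108 without the 2 farthest pigs.

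COL1A2 had weaker relations with the other 3 genes. With COL5A1, r was 0.710 in LD and 0.572 in S. In S it was 0.182 without the 2 farthest pigs, 0.894 within PUL and -0.29 within PL. With COL6A3 in S, r was 0.563 over 16 pigs, 0.165 without the 2 pigs, 0.804 within PUL and -0.31 within PL. COL11A1 had r = 0.146 with COL1A2 in LD (permutation test, p = 0.585) and 0.513 in S (p = 0.0461, adjusted p = 0.0615, permutation test), the latter at 0.237 without the 2 pigs. Between the muscles of a pig, COL6A3 had r = 0.690 and rho = 0.753 (permutation test, adjusted p = 0.00997 for r and 0.00325 for rho), with 0.601 in PUL, 0.856 in PL and 0.573 without the 2 farthest pigs. COL3A1 had r = 0.644 and rho = 0.774 between the muscles (adjusted p = 0.0141 and 0.00182, permutation test), though r was 0.356 within PL. COL1A2 had 0.506 between the muscles, with 0.591 in PUL and -0.26 in PL. COL11A1 had 0.539, with 0.341 in PUL, 0.597 in PL and, over both breeds, 0.292 without the 2 farthest pigs.

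With group means removed, the likeness of the genes over the 32 libraries is given as a description, since libraries of a pig and the scaling are shared. COL3A1 and COL5A2 had r = 0.908, COL3A1 and COL1A2 had 0.905, and COL11A1 lay between 0.04 and 0.43 with the other 5 genes. Like genes were searched only among tested genes with a symbol, here and for each collagen gene below. The 10 outside the collagens with the highest mean r to the 6 were GPC3 (0.677), CCDC80 (0.673), FN1, FKBP9, MRC2, GLT8D2, SMOC2, TGFBI, CPXM1 and ITGBL1 (0.607). CCDC80 was the gene most like COL1A2 (0.954) and COL3A1 (0.955), and FN1, which encodes fibronectin, the gene most like COL5A2 (0.909). COL5A1 was most like COL6A2 (0.816), a partner chain of COL6A3. COL6A3 itself was most like TGFBI (0.889), followed by COL5A3 (0.864). The nearest gene to COL11A1 was RDH12, at 0.626.

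**Figure D5:**
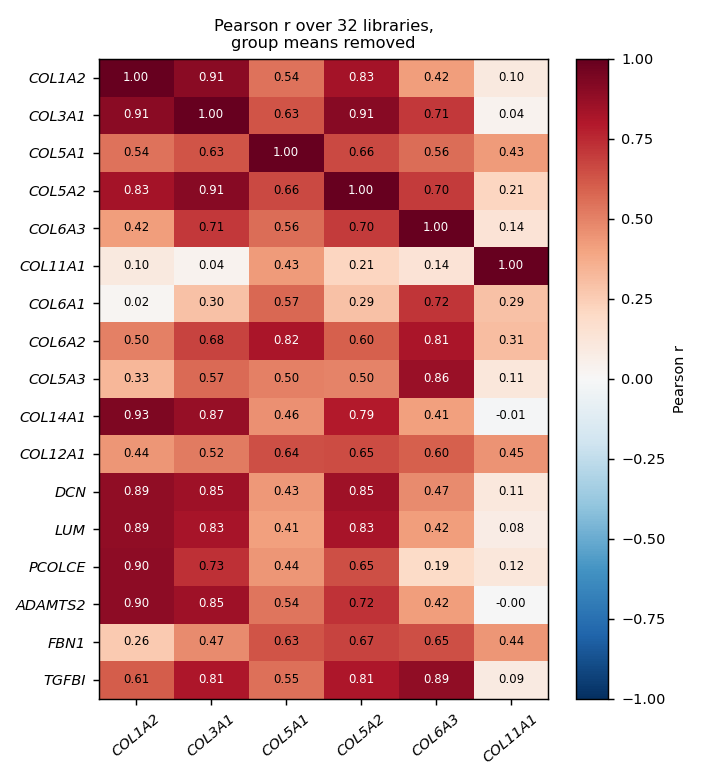
Pearson r over 32 libraries of log2(CPM + 0.5) after removal of the 4 group means, between the 6 collagen genes (columns) and these genes with 11 other matrix genes (rows). COL1A2, COL3A1 and COL5A2 have r between 0.83 and 0.91 with each other, and the column of COL11A1 holds no value above 0.45 except its own.

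Other genes of the collagen pathway were taken from lists. Of 23 other collagens 16 had an ID and 9 were tested in LD, 10 in S and 11 between the muscles, and none was called. In LD 5 of 9 had fitted values above 0 (median 0.00), and in S 8 of 10 had (median 0.32). The partner chains COL6A1, COL6A2 and COL5A3 had log2 fold changes in LD of -0.38 ± 0.40 (SE), -0.11 ± 0.28 and -0.19 ± 0.23. In S these were 0.35 ± 0.67, -0.05 ± 0.44 and 0.24 ± 0.30, and COL11A2, a partner of COL11A1, was too low to be tested. The fibril-associated collagen COL14A1 had 1.40 ± 0.59 in LD and 1.05 ± 0.46 in S, with medians of 14.2 and 31.2 CPM in PUL and 28.1 and 68.6 CPM in PL. COL12A1, of the same class, had 1.47 ± 0.56 in S and COL8A1, a network-forming collagen, had 1.15 ± 0.48, with medians between 0.403 and 1.497 CPM in S. Their unadjusted p lay under 0.05 and their adjusted p between 0.344 and 0.395 in S (edgeR). COL21A1 had 0.69 ± 0.54 in LD.

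Of 31 genes for the modification, cleavage and cross-linking of collagen 23 had an ID, and none was called in LD (19 tested), S (19) or between the muscles (20). Fitted values were above 0 for 12 of 19 genes in LD (median 0.09) and 17 of 19 in S (median 0.19). ADAMTS2, which cleaves the amino-terminal propeptide, had 0.73 ± 0.42 (SE) in LD and 0.81 ± 0.40 in S. PCOLCE, which enhances cleavage at the other end, had 0.64 ± 0.42 in LD. Of the prolyl hydroxylase subunits, P4HA2 had -0.28 ± 0.16 in LD and P4HA3 had 0.72 ± 0.37 in S. LOXL4, of the lysyl oxidase family that cross-links collagen, had 0.88 ± 0.32 in S with an unadjusted p of 0.0135 and an adjusted p of 0.324 (edgeR).

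Ligands, receptors and targets of TGF-beta, a main inducer of collagen synthesis, were tested for 12 of 14 listed symbols, and none was called. Fitted values in the breed comparison were above 0 for 8 of 12 in LD (median 0.19) and 11 of 12 in S (median 0.26). Among ligands and their binding proteins, TGFB2 had 0.56 ± 0.19 (SE) in S, with medians of 7.50 CPM for PUL and 11.5 CPM for PL, and LTBP1 had 0.52 ± 0.28. The receptor TGFBR2 had 0.41 ± 0.24 in S. The signal transducer SMAD3 had -0.58 ± 0.27 in LD, and the targets TGFBI and CCN2 had 0.68 ± 0.43 and 0.82 ± 0.54.

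Between the muscles, the lists gave values above 0 for 8 of 11 other collagens, 16 of 20 processing genes and 8 of 12 TGF-beta genes, with medians of 0.24, 0.10 and 0.11, beside 5370 of 11563 genes tested. COL14A1 had 0.69 ± 0.32 (SE) in S over LD, COL12A1 0.50 ± 0.33 and COL4A2, a chain of basement membranes, 0.31 ± 0.12. COL6A2, COL6A1 and COL5A3 had 0.30 ± 0.20, 0.24 ± 0.38 and -0.08 ± 0.15. BMP1, which cleaves the carboxy-terminal propeptide of procollagen, had 0.51 ± 0.18 and an adjusted p of 0.56 (edgeR), LOXL1 had 0.73 ± 0.33 and ADAMTS2 had 0.33 ± 0.21. CCN2 had 0.91 ± 0.37, TGFB3 0.40 ± 0.16 and SMAD4 -0.19 ± 0.08.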

How the data were processed

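RNA of 32 muscle libraries was sequenced after removal of ribosomal RNA, as single reads. The authors checked reads with FastQC, trimmed and filtered them with Flexbar, mapped them with Bowtie 2 to the Sscrofa10.2 assembly and quantified genes by RSEM. The authors deposited expected counts per gene, not normalized. A read matching several genes is divided among them, so counts of near-identical copies are uncertain. Of the expected counts, 14.7% were not whole numbers, and all were rounded. The expected counts per isoform were not used, because no table paired isoforms with genes, so shares of isoforms are not reported. Symbols were paired with 11804 of 25322 gene IDs.

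Breeds were compared in each muscle with edgeR 4.0.16 in R 4.3.3 (quasi-likelihood test, TMM factors, filterByExpr, Benjamini-Hochberg adjustment over all genes tested), with the 0.05 and 1.3-fold thresholds of the study's methods. The study also asked for significance by at least 2 methods among edgeR, baySeq and DESeq2, while calls here rest on 1 test. The muscles were compared with the pig as a block, since each pig gave both. Deviations from the group means of the 2 libraries of a pig correlated at 0.0436 to 0.686 in PUL and -0.516 to 0.636 in PL, and were highest with the same pig in 3 of 8 PUL and 1 of 8 PL pigs. The labels number the pigs in the sample descriptions. Ratios of CPM + 0.5 were compared by exact permutation tests adjusted over 45 tests, and correlations by 100000 resamples (SciPy 1.17.1) adjusted over 16 relations. Fits were tested on simulated data. Alternatives were DESeq2 1.42.0, edgeR's exact test, RLE factors, library size alone, 2 other filters, robust dispersion, no fold minimum, the replicate block, a hepatocyte covariate, both muscles in one fit, and leaving out each pig or PUL pigs 1 to 5. No 2 libraries of a group agreed within sampling noise (chi-square per degree of freedom at least 35.5).

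The members, gene lists and alternatives were chosen with earlier results of these data known. Named beside the 6 genes are partner chains, the 3 genes with the smallest p in each list and comparison, and the 10 genes with a symbol most like the 6. Ranges of each group and standard errors give the precision, and intervals of single libraries were not computed.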

Additional observations from a re-analysis of the deposited data

Results flagged for a closer look

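In 24 groups of 8 pigs, 6 genes in 4 groups, 1 pig lay far from the other 7 in 5 groups by Dixon's criterion. Chance gives about 1 in 20 for normally distributed values, and its rate for right-skewed CPM was not established. COL3A1 in PL S was 2691 CPM in pig 12, and the next pig had 1126 CPM. COL5A1 in PL S was 20.7 CPM in pig 8 and 7.41 CPM in the next, and COL11A1 in the same library was 15.5 CPM beside 8.17 CPM. In LD, COL5A1 was 9.09 CPM in PUL pig 17 beside 4.22 CPM, and 8.93 CPM in PL pig 14 beside 5.70 CPM. Each of the 5 lay above the rest of its group.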

How the results depend on the processing

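Of the 6 genes, 0 were called in any comparison under any alternative except COL11A1 by breed in S, where DESeq2 called 1 and edgeR's exact test called 1. Relations among pigs with an adjusted p of 0.05 or less numbered 10, and were 6 with CPM in place of log2 values and 3 without PUL pigs 1 to 5. With all genes, DESeq2 called 19 in LD and 103 in S, edgeR's exact test 13 and 56, and one fit of both muscles 6 and 70. Between the muscles DESeq2 called 60, and 109 within PUL, against 13 and 7.

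The breed values turned sign without PUL pigs 1 to 5 for COL5A1 (-0.17 in LD, -0.0796 in S) and COL6A3 (-0.17 in S), and the breed-by-muscle values for COL1A2 (-0.28), COL3A1 (-0.51), COL5A1 (-0.18), COL5A2 (-0.16) and COL6A3 (-0.26). The cause was not tested. In PUL alone, S over LD turned for COL5A2 with library size alone (-0.0457) and, without single pigs, spanned -0.0905 to 0.46 for COL3A1, -0.0481 to 0.28 for COL5A1, -0.10 to 0.30 for COL5A2 and -0.31 to 0.0408 for COL6A3. Breed-by-muscle values without single pigs spanned -0.20 to 0.44 for COL1A2 and -0.15 to 0.43 for COL3A1.

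With the title number as a replicate block, 0 of the 6 genes and 0 genes in all were called by breed in LD and in S, and 0 chain ratios. The numbers belong to different pigs in the 2 breeds, and whether same-numbered pigs share anything else was not tested. Same-numbered pigs correlated at -0.301 to 0.552 in LD and -0.309 to 0.203 in S, over 0.1 in 6 and 2 of 8. They were best with their own number in 2 and 1 of 8. With this block 3 of the 6 genes had an unadjusted p under 0.05 in LD (edgeR). The lowest was that of COL1A2, 9.28e-05, with a log2 fold change of 1.41 ± 0.24 (SE) and an adjusted p of 0.299 (edgeR). Without the pig as a replicate block, 0 of the 6 genes were called, S over LD in PUL was 0.0554 for COL6A3, and the breed-by-muscle values were -0.11 for COL1A2 and -0.30 for COL3A1. Library size alone moved the median log2 fold change of all genes by breed in LD to -0.18, and all 6 collagen genes kept values above 0. Leaving out PUL pigs 1 to 5 does not apply within PL and was not run there, and shares of isoforms were not run. Low counts limit COL11A1 and COL5A1 most.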
